A study of Mus musculus with 39 samples.

Results

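The genes described here were Myc and 9 genes whose protein products work in the nucleolus: Ncl, Npm1, Fbl, Nop56, Nop58, Dkc1, Gnl3, Nolc1 and Gar1. They were taken by name from the 25219 genes of the deposited table, and all 10 were found. Myc is a transcription factor that binds DNA as a dimer with Max and is known to raise the transcription of genes for ribosome production. In the intestinal crypt it is a target of Wnt signalling. The nucleolus is the part of the nucleus where RNA polymerase I transcribes ribosomal RNA, where small nucleolar ribonucleoproteins (snoRNPs) modify that RNA, and where the ribosomal subunits begin to be assembled.

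Expression was measured in 39 single cells of 1 group. They were tdTomato+ Sca1- cells of the crypt epithelium from mice of the genotype Lgr5-EGFP-Ires-CreERT2:Rosa-lsl-tdTomato, in which tamoxifen marks cells that express Lgr5, and all their later progeny, with a red fluorescent protein. Every mouse received tamoxifen 24 h before total body irradiation (TBI) with 10 Gy, and the cells were collected 48 h after TBI. No unirradiated cells and no Sca1+ cells were analysed here, so none of the levels below can be called a response to irradiation. The labels tie no cell to an animal, so the cells count as 1 biological sample, an SD is a spread over cells, and no p-value was computed.

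Values were FPKM, that is, fragments scaled to transcript length and to a total for each cell, as deposited, and detection means a value of at least 1 FPKM. The cells held between 398418 and 3903971 estimated counts on genes (median 3089188), and between 2287 and 5779 genes were detected in each. Of 5 epithelial markers, Epcam and Krt8 were detected in 39 of 39 cells, Cdh1 in 38 and Vil1 in 31, while Cdx2 was detected in 2 cells, with a highest value of 3.901 FPKM. The T cell, B cell and stromal markers Cd3e, Cd79a, Col1a1, Col3a1, Pdgfra and Pecam1 were at 0 in every cell, and the other immune markers reached at most 0.31 FPKM (Ptprc) and 1.58 FPKM (Lyz2, detected in cell 63 only). Lgr5 itself was detected in 8 cells. Ly6a, which encodes Sca1, was detected in 4 of these Sca1-sorted cells, with a highest value of 509 FPKM. Cells 79 and 96 stood apart from the rest. They were the only cells with more than 1 of the tuft cell markers Dclk1, Trpm5 and Pou2f3: the summed FPKM of these markers was 394 in cell 96, 286 in cell 79, 19.6 in cell 67, 11.04 in cell 7 and below 1 FPKM in every other cell. Correlations are therefore also given without cells 79 and 96, a choice made after the values were seen.

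Myc RNA was detected in 29 of 39 cells (74.4%, exact 95% interval 57.9% to 87.0%). This interval, like the others, covers counting error only. Its level ran from 0 over a median of 41.1 to 248 FPKM. No cell lay between 2.35 FPKM, with 14 cells at or below it, and 8.16 FPKM, with 25 cells at or above it. A further gap of similar width on the log2 scale followed, since only cells 56 (8.16 FPKM) and 71 (11.6 FPKM) lay below the next value, 30.2 FPKM. At most 15 estimated counts lay behind a value at or below 2.35 FPKM, and at least 47 behind a value at or above 8.16 FPKM. Myc was listed at 0 in 3 cells (22, 66 and 95), which held 4745, 5115 and 4669 detected genes. The highest Myc values were 248 FPKM in cell 30, 227 FPKM in cell 48 and 205 FPKM in cell 63. Cell 63 also had the highest Lyz1, a Paneth cell gene, at 1498 FPKM, and the highest Agr2, a goblet cell gene, at 23329 FPKM. On the log2(FPKM + 1) scale the SD of Myc over cells was 2.90, larger than that of 94.9% of the 9804 genes whose mean was 1 FPKM or higher (genes in use), whose median SD was 1.91.

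Npm1 and Ncl encode abundant nucleolar proteins, nucleophosmin, a histone and ribosome assembly chaperone, and nucleolin, which binds ribosomal RNA and its precursors. Npm1 was the highest of the 10 genes and was detected in 39 of 39 cells. Its level was 2.02 FPKM in the lowest cell, 1993 FPKM at the median and 3277 FPKM in the highest, and its mean exceeded that of 99.8% of the genes in use. Ncl was detected in 38 cells, with a lowest value of 0.10, a median of 201 and a highest value of 464 FPKM. The coefficient of variation over cells was 42.8% for Npm1 and 45.97% for Ncl, the lowest of the 10 genes, against a median of 225% over the genes in use. On the log2(FPKM + 1) scale, where low cells weigh more, the SD was 1.49 for Ncl, 1.61 for Nop58, 1.68 for Gnl3 and 1.72 for Npm1. The row of Ncl was assigned a length of 8257 bases, against 1159 to 3665 bases for the other members, so its FPKM is low for its reads. It had the second highest median estimated count, 5927, after 12278 for Npm1.

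Fbl, Nop56 and Nop58 encode core proteins of the box C/D snoRNPs, which methylate ribosomal RNA, and fibrillarin (Fbl) is the methyltransferase. They did not have equal RNA levels. Nop56 ran from 0.19 over a median of 267 to 1338 FPKM, Nop58 from 0.44 over 185 to 483 FPKM, and Fbl from 0 over 62.9 to 417 FPKM. The ranges overlapped widely, and detection was close, at 36 cells for Fbl, 37 for Nop56 and 38 for Nop58. Nhp2l1, for a further core protein of these particles, had a median of 318 FPKM.

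Dkc1 and Gar1 belong to the box H/ACA snoRNPs, which convert uridines of ribosomal RNA to pseudouridine, and dyskerin (Dkc1) is the pseudouridine synthase. Their levels lay far apart. Dkc1 was detected in 36 cells, with a lowest value of 0, a median of 119 and a highest value of 409 FPKM. Gar1 was the lowest of the 10 genes and was detected in 23 of 39 cells (59.0%, exact 95% interval 42.1% to 74.4%), with a lowest value of 0, a median of 1.94 and a highest value of 82.4 FPKM. A median of 9 estimated counts stood behind its values, and it was listed at 0 in 10 cells. The other core proteins of this particle, Nhp2 and Nop10, had medians of 310 and 291 FPKM, so Gar1 RNA was below that of its partners on the same per-length scale.

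Nolc1 encodes a chaperone of snoRNPs that shuttles between the nucleolus and Cajal bodies, and Gnl3 encodes nucleostemin, a nucleolar GTPase known from stem cells. Nolc1 was detected in 37 cells and ran from 0 over a median of 36.1 to 240 FPKM. Gnl3 was detected in 38 cells and ran from 0.46 over 103 to 391 FPKM. By median the order of the levels was Npm1, Nop56, Ncl, Nop58, Dkc1, Gnl3, Fbl, Myc, Nolc1 and Gar1. Only the first step, from Npm1 to Nop56, and the last, from Nolc1 to Gar1, exceeded the pooled SD over cells. The differences in mean log2(FPKM + 1) were 2.82 and 2.92 there, against pooled SDs of 1.93 and 1.97, and Npm1 was above Nop56 in 37 of 39 cells. The remaining neighbours did not differ beyond their spread.

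**Figure D1:**
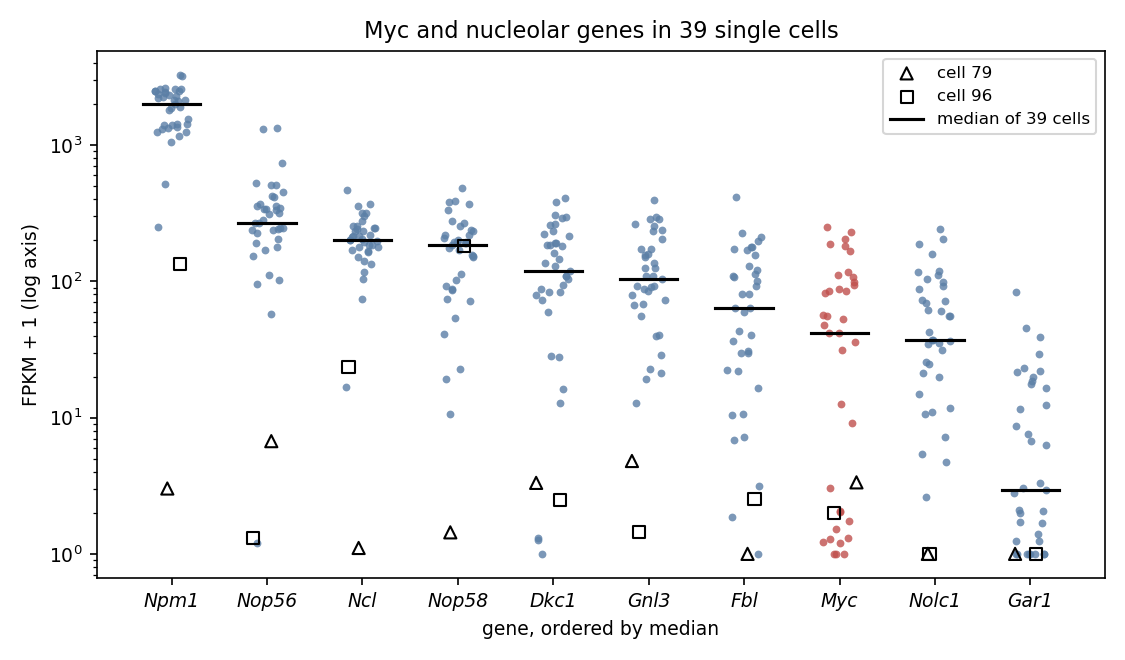
FPKM + 1 of each gene in each of the 39 cells (points, log axis), with the median over cells as a black line and cells 79 and 96 as an open triangle and an open square. Npm1 lies highest with a median of 1993 FPKM, Myc (red) has no cell between 2.35 and 8.16 FPKM and only 2 cells from there up to 30.2 FPKM, and cell 79 is lowest or close to it in every nucleolar gene.

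Cells 79 and 96 had the lowest nucleolar RNA. The nucleolar mean, taken as the mean of log2(FPKM + 1) over the 9 nucleolar genes, was 1.0 in cell 79 and 2.52 in cell 96, below the 4.72 of cell 9, the cell with the fewest genes detected. The highest was 7.67 in cell 17. In cell 79, Npm1 was at 2.02 and Ncl at 0.10 FPKM. In cell 96, Nop56 was at 0.31 and Gnl3 at 0.46 FPKM, while Nop58, at 180 FPKM, was near its median. The keratin Krt8 was higher in these cells than in any other, at 4209 and 3767 FPKM. Cell 79 also had the highest Fabp1, an enterocyte gene, at 40997 FPKM against a median of 1.0 FPKM, with Pou2f3 at 0 and the crypt stem cell gene Olfm4 at 0.79 FPKM, but with Lgr5 at 1.63 FPKM. In cell 96 the stem cell genes Olfm4 (2353 FPKM) and Ascl2 (28.4 FPKM) were above their medians of 829 and 3.50 FPKM. Cell 79 held 2335 detected genes, with 63.5% of its total on genes. Cell 96 held 2988 detected genes, the third lowest number, with 90.4% of its total on genes. The part of depth or of cell type in these low values was not tested. All 9 nucleolar genes were detected in 22 of 39 cells, and 8 or 9 of them in 33.

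The members are spread over 9 chromosomes, and only Ncl and Nop58 share 1 (chromosome 1). In the coordinates of the deposited table (mm10/GRCm38), Myc lies at chr15:61985341-61990361, Npm1 at chr11:33152498-33163206, Ncl at chr1:86344719-86359455, Dkc1 at chrX:75095854-75109776 and Nolc1 at chr19:46075847-46085543. Myc-Max dimers prefer the E-box CACGTG, and promoters of 7 of the 10 genes matched by symbol in the RefSeq promoter table (GRCm38.p6), each a window of 250 bases before to 50 bases after the gene start. Myc, Npm1 and Fbl had no match. CACGTG was in 0 of the 7 windows, against 7.15% of all 32851 windows. Sequence outside the windows was not searched, and 7 windows are too few to tell 0 from that share. The variants CATGTG and CACGCG, read on both strands (CACATG and CGCGTG), were in 2 of the 7, Dkc1 and Nolc1, against 22.8% of all windows. These windows are printed because they are the only ones of the 7 with such letters. The variant is in capitals and begins at position -7 from the gene start for Dkc1 (chrX:75095604-75095903, plus strand) and at position -25 for Nolc1 (chr19:46075597-46075896, plus strand).
Dkc1: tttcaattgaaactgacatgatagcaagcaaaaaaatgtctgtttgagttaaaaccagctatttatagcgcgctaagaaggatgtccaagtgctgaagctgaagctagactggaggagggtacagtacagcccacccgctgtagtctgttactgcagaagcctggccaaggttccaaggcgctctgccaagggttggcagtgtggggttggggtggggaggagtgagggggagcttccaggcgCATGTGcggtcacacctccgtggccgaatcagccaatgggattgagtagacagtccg
Nolc1: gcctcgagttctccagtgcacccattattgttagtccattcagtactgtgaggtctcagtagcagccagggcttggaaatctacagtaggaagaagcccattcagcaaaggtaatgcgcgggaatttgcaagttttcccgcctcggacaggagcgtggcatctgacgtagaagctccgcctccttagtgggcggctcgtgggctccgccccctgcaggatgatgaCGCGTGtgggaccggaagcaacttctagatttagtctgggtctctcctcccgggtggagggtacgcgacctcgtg
A match describes these letters in this window, and binding of Myc was not measured.

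The introns of 4 nucleolar genes carry snoRNAs, the RNAs that guide the particles their neighbours build. The deposited rows of Ncl, Nop56, Nop58 and Gnl3 each list 2 snoRNA transcripts beside the messenger RNA, 8 in all, and each of these snoRNAs also has a row of its own. In 7 of these 8 rows every cell was at 0, and Snora75, inside Ncl, had 160 estimated counts over 9 cells. The 7 rows are 53 to 68 bases long, shorter than the 100-base reads, so a 0 there does not show that the snoRNA was absent. Of the 7 Snord RNAs among them, the 4 below carry both motifs of the C/D class, box C (TGATGA, beginning within the first 20 bases) and box D (CTGA, beginning within the last 15 bases), in capitals, and so do 69.4% of the 98 Snord transcripts of GENCODE vM21 (GRCm38). They lie inside Ncl (Snord82, chr1:86356261-86356330, minus strand), Nop56 (Snord110, chr2:130275506-130275573, plus strand), Nop58 (Snord11, chr1:59704790-59704873, plus strand) and Gnl3 (Snord69, chr14:31014287-31014366, minus strand).
Snord82: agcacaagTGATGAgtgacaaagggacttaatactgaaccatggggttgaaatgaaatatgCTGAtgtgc
Snord110: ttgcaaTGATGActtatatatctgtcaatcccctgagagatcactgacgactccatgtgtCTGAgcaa
Snord11: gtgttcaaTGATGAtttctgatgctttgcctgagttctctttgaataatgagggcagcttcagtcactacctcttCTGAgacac
Snord69: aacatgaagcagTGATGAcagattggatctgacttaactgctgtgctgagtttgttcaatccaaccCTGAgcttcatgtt
Estimated counts can be divided between rows that share sequence or position. They were more than 1e-06 away from a whole number in 34 of 39 cells for Nop56, in 29 of 39 for Gnl3 and in 21 of 39 for Npm1, but were whole in every cell for Myc and Gar1. Nop56 overlaps Idh3b, Dkc1 overlaps Mpp1 and Gnl3 overlaps Glt8d1 on the opposite strand. Whether the reads were counted by strand is not given in the sources used here, so the levels of these 3 members are uncertain by what they share.

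The Myc level of each cell was then compared with its nucleolar RNA. Over the 39 cells, the nucleolar mean did not rise with Myc. Spearman's correlation was -0.11, and it stayed between -0.16 and -0.05 when each cell was left out in turn. It was -0.19 with the number of detected genes held fixed and -0.20 without cells 79 and 96. Pearson's correlation of the log2 values was 0.14 over all cells and -0.10 without cells 79 and 96, so its sign changed when those cells were left out. Leaving out the 2 cells farthest from the median of Myc gave a Spearman correlation of -0.03. The points share a library preparation, and single cells differ in depth: the nucleolar mean had a Spearman correlation of 0.55 with the number of detected genes, and Myc one of 0.08.

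**Figure D2:**
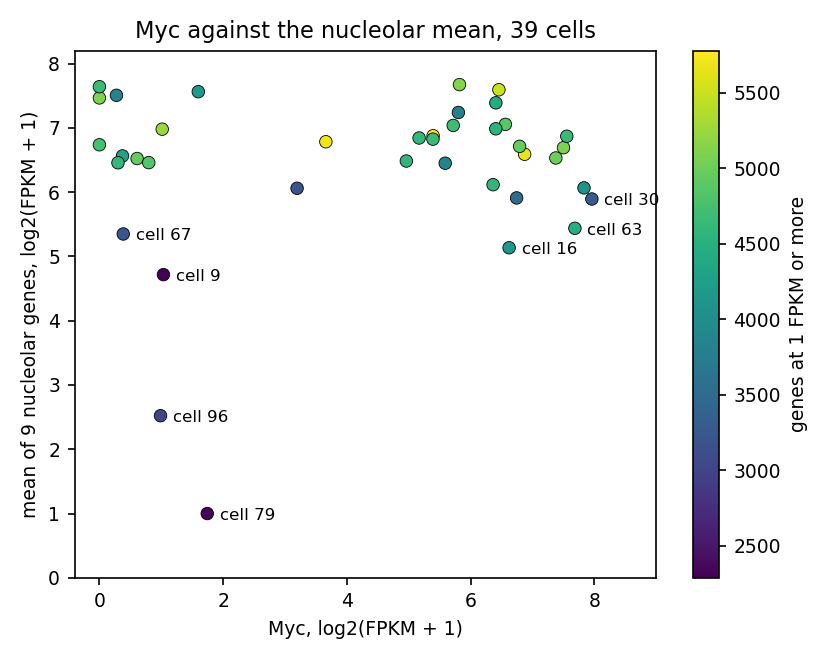
Each point is 1 of the 39 cells, with Myc as log2(FPKM + 1) on the x axis, the mean of log2(FPKM + 1) over the 9 nucleolar genes on the y axis, and colour for how many genes were detected. Cells with Myc at 0 reach nucleolar means as high as cells with high Myc, cell 30 with the highest Myc lies at 5.89, and cells 79 and 96 lie lowest.

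Gene by gene, 0 of the 9 nucleolar genes had a Spearman correlation with Myc of 0.3 or more, the value used as a call, which 4.67% of all genes in use reached. The median over the 9 genes was -0.07, against 0.02 over all genes. Gnl3 was the highest at 0.25 and Nop56 followed at 0.13. The remaining 7 were below 0, namely Ncl at -0.02, Fbl at -0.06, Dkc1 at -0.07, Gar1 at -0.11, Nolc1 at -0.13, Nop58 at -0.22 and Npm1 at -0.33. Npm1 was the only one at -0.3 or less, a value that 2.15% of all genes reached. Its correlation ran from -0.38 to -0.28 when single cells were left out and was -0.44 without cells 79 and 96, but Pearson's correlation was 0.12 over all cells and -0.16 without cells 79 and 96. A weak correlation in such data is no finding, and the Npm1 value is given only as the lowest of the 9.

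Individual cells combined the levels of Myc and of nucleolar RNA in different ways. Cell 60 had Myc at 86.9 FPKM with the third highest nucleolar mean (7.59), and cell 86 had Myc at 83.9 FPKM with a nucleolar mean of 7.39. Cell 95, in which Myc was listed at 0, had the second highest nucleolar mean (7.64), with Npm1 at 2386, Nop58 at 390 and Dkc1 at 296 FPKM. Cell 17, with the highest nucleolar mean, had Myc at 55.5 FPKM, Npm1 at 2552 FPKM and Ncl at 368 FPKM. Cell 30, with the highest Myc, had the highest Ncl (464 FPKM) and Gnl3 (391 FPKM) of all cells, but Dkc1 at 0.27 FPKM and Gar1 at 0. In cell 16, Myc was at 97.53 FPKM while Fbl, Dkc1 and Gar1 were listed at 0. A transcript lost before amplification is also listed as 0, so a 0 in 1 cell does not show that the RNA was absent.

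The nucleolar genes were also compared with each other. Of their 36 pairs, 11 had a Spearman correlation of 0.3 or more, against 5.64% of all pairs of genes in use and 7.4% of pairs whose genes both averaged 10 FPKM or higher. The median over the 36 pairs was 0.21, against 0.03 over all pairs. The highest pairs were Nop58 with Gar1 (0.51), Ncl with Npm1 (0.51) and Npm1 with Nop58 (0.49). Partners within a particle were not the highest. Fbl with Nop56, Fbl with Nop58 and Nop56 with Nop58 had correlations of 0.15, 0.18 and 0.15, and Dkc1 with Gar1 one of 0.21. Only 3 pairs were below 0, of which Gnl3 with Gar1 was the lowest at -0.15.

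**Figure D3:**
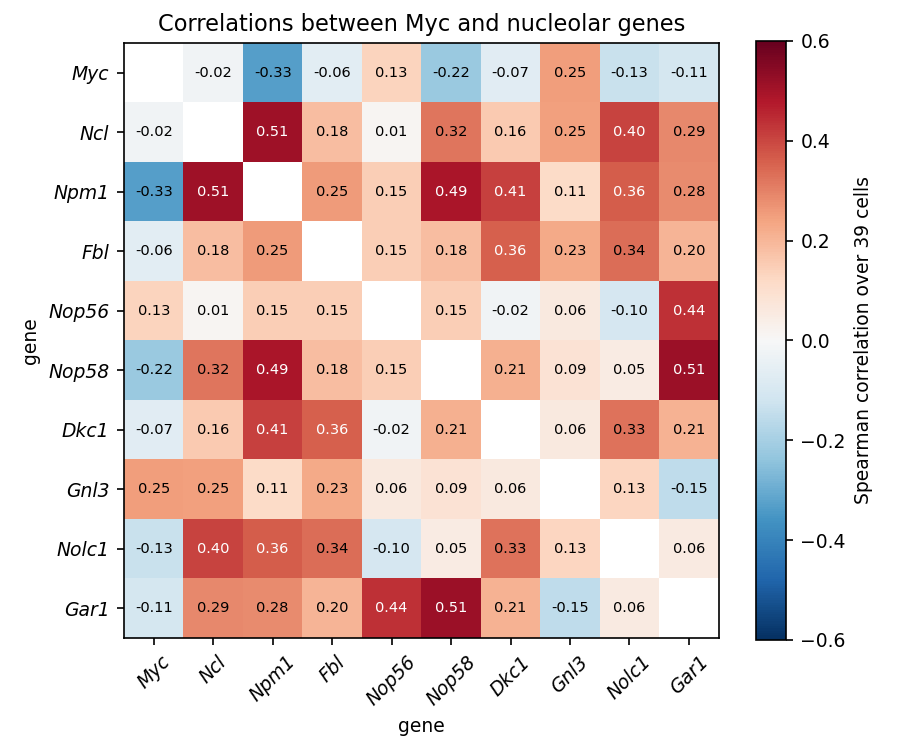
Spearman correlations over 39 cells for every pair of the 10 genes, with red for positive and blue for negative values and the value printed in each field. The row of Myc runs from -0.33 for Npm1 to 0.25 for Gnl3, and the highest fields are Nop58 with Gar1 and Ncl with Npm1, both at 0.51.

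These correlations were lower without the cells that stood apart. Without cells 79 and 96 the median of the 36 pairs was 0.11 and 6 pairs stayed at 0.3 or more, against 5.47% of all pairs. With the number of detected genes held fixed the median was 0.13, a change of less than 0.1, and 7 pairs stayed at 0.3 or more, against 4.05% of all pairs. Pearson's correlation, which gives the low cells more weight, had a median of 0.41 over all cells and of 0.13 without cells 79 and 96. Against the mean of the other 8, 6 of the 9 genes reached 0.3, namely Npm1 (0.46), Nop58 (0.45), Gar1 (0.44), Dkc1 (0.40), Ncl (0.38) and Fbl (0.36), while 16.1% of all other genes in use reached 0.3 with the mean of the 9. Nolc1 was at 0.21, Nop56 at 0.18 and Gnl3 at 0.08. Without cells 79 and 96, 4 genes stayed at 0.3 or more (Nop58 at 0.42, Gar1 and Npm1 at 0.36, Dkc1 at 0.31), against 12.2% of all other genes in use. With detected genes held fixed, 3 did so (Nop58 at 0.38, Npm1 at 0.34, Gar1 at 0.31), against 6.13% of the other genes. Nop58, Npm1 and Gar1 stayed at 0.3 or more against the mean of the others under each of these settings, but Npm1 with Gar1 as a pair was at 0.28, and at 0.17 and 0.18 under the changed settings.

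**Figure D4:**
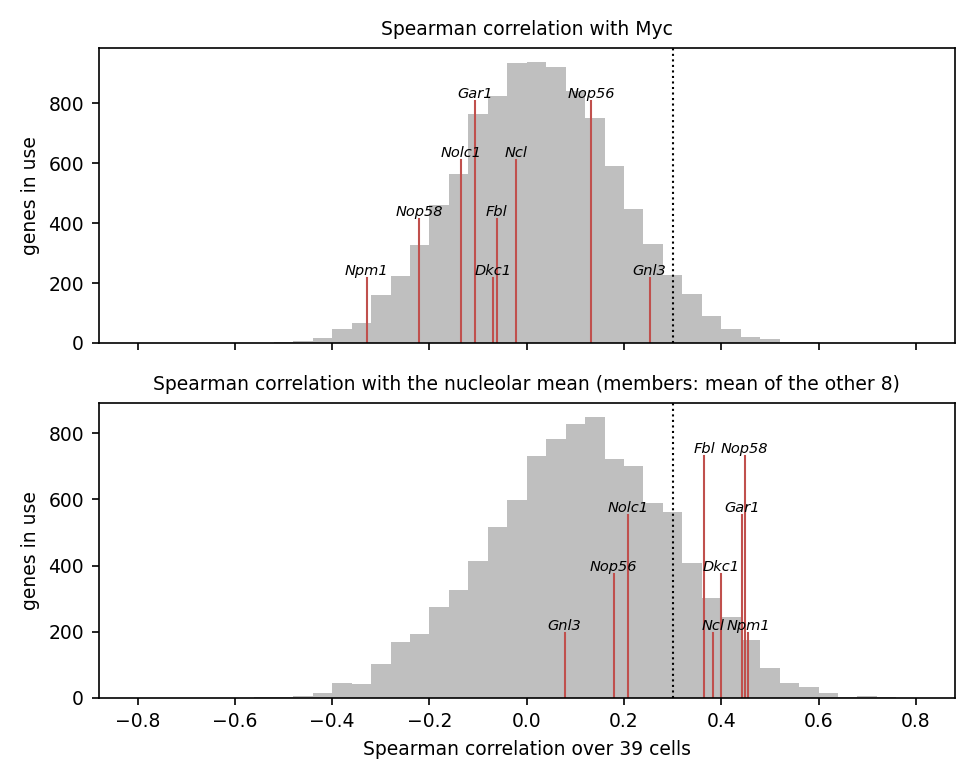
Histograms of Spearman correlations over 39 cells for the genes in use, with Myc (top) and with the nucleolar mean (bottom), a dotted line at 0.3, and red lines for the nucleolar genes. In the top panel the 9 genes lie between -0.33 and 0.25 with none past 0.3, and in the bottom panel, where each is set against the other 8, they lie between 0.08 and 0.46 with 6 past 0.3.

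Next, 9 lists were compared with Myc and the nucleolar mean, with the 10 members left out of each: genes of ribosome production, the Myc network, Myc targets outside the nucleolus, DNA replication, cytosolic ribosomal proteins and a Gene Ontology list. Against the nucleolar mean, the medians of 7 of the 9 lay above the median of all genes (0.11). RNA polymerase I and its factors had a median of 0.28, with 6 of 15 genes at 0.3 or more, against 16.1% of all genes in use. Taf1d, a subunit of its promoter factor, was the highest (0.55) and Polr1c, a subunit of polymerases I and III, the lowest (-0.13). Of the snoRNP proteins and their assembly factors, 6 of 10 reached 0.3 (median 0.32), with Tcof1 (0.38), a nucleolar protein, the highest and Coil (-0.06), which marks Cajal bodies, the lowest. Small subunit assembly factors had 12 of 39 genes at 0.3 or more (median 0.24), from Tsr1 at -0.11 to Wdr36 at 0.59, and large subunit assembly factors 18 of 41 (median 0.28), from Gtpbp4 at -0.0026 to Las1l at 0.63.

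The remaining lists were described in the same way. DNA replication genes had 23 of 40 genes at 0.3 or more (median 0.34), from Tyms at 0.05 to Orc6 at 0.59. A list of Myc targets outside the nucleolus had 20 of 38 (median 0.33), from the amino acid transporter subunit Slc3a2 at -0.12 to Pa2g4 at 0.59. Pa2g4 encodes a protein that is also known from the nucleolus and from pre-ribosomal particles, so the list is not free of nucleolar genes. Of 611 genes annotated to the nucleolus or to ribosomal RNA processing in Gene Ontology, 133 (21.8%) reached 0.3, near the 16.1% of all genes in use, with a median of 0.18. The genes for cytosolic ribosomal proteins did not follow the nucleolar mean, with a median of 0.02 and 4 of 76 genes at 0.3 or more. Rpl30 was the highest at 0.57 and Rpl35 the lowest at -0.36. With detected genes held fixed, the median over all genes fell from 0.11 to 0.02 and those of the 4 ribosome production lists lay between 0.13 and 0.19. They were 0.17 for DNA replication and 0.20 for the Myc targets. The Gene Ontology list fell to 0.05, and ribosomal proteins were at 0.03 and the Myc network at 0.02. Without cells 79 and 96 the median over all genes was 0.09, and the list medians were 0.22 for RNA polymerase I, 0.24 for snoRNPs, 0.15 for the small subunit, 0.22 for the large subunit, 0.27 for DNA replication, 0.23 for the Myc targets, 0.07 for the Myc network and 0.13 for the Gene Ontology list. The ribosomal protein median was then -0.13, and cells 79 and 96 had the lowest summed FPKM of these genes, at 22265 and 37863. Cell 9 was close to cell 96, at 38986, and the next lowest, cell 93, was at 64807.

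None of these lists followed Myc. Their median correlations with Myc lay between -0.16 and 0.08, around the 0.02 of all genes. The number of genes at 0.3 or more was 0 of 15 for RNA polymerase I, 1 of 10 for snoRNPs, 3 of 39 for the small subunit, 3 of 41 for the large subunit, 2 of 38 for the Myc targets, 0 of 40 for DNA replication and 3 of 76 for ribosomal proteins, against 4.67% of all genes. The extremes were Polr1a (0.20) and Taf1d (-0.22) for RNA polymerase I, Nhp2l1 (0.30) and Tcof1 (-0.10) for snoRNPs, Rcl1 (0.38) and Imp3 (-0.25) for the small subunit, and Rrs1 (0.35) and Mdn1 (-0.35) for the large subunit. Umps (0.31), of pyrimidine synthesis, and the cell cycle kinase gene Cdk4 (-0.36) were the extremes of the Myc targets. Rfc2 (0.21) and Mcm10 (-0.36) were those of DNA replication, and Rpl27a (0.40) and Rpl30 (-0.22) those of the ribosomal proteins.

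**Figure D5:**
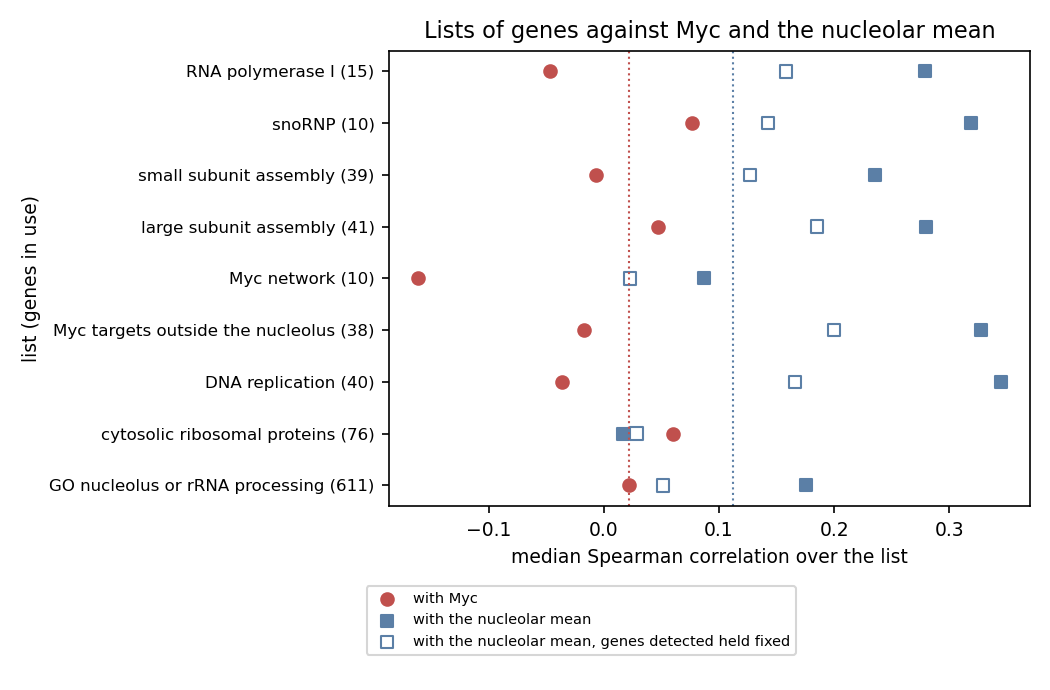
Median Spearman correlation over the genes in use of each list, with Myc (red circles), with the nucleolar mean (filled squares) and with the nucleolar mean with detected genes held fixed (open squares); dotted lines mark the medians of all genes, 0.02 and 0.11. With Myc the lists lie between -0.16 and 0.08, and with the nucleolar mean between 0.02 for ribosomal proteins and 0.34 for DNA replication.

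The partners of Myc were detected in fewer cells than Myc itself. Max, with which Myc binds DNA, was detected in 13 cells, with a median of 0 and a highest value of 74.5 FPKM in cell 52. Of the related Myc genes, Mycn was detected in 1 cell (46.8 FPKM in cell 93) and Mycl in 11 cells (highest 128 FPKM in cell 54). The Max dimerization genes that compete with Myc were sparse, with Mxd1 in 4 cells, Mxd3 in 1, Mxd4 in 2, Mxi1 in 5 and Mnt in 3. Mga, which also dimerizes with Max, was detected in 26 cells with a median of 2.54 and a highest value of 51.7 FPKM. Its correlation with Myc, -0.34, was the lowest of the network and the only one of 10 at -0.3 or less, against 2.15% of all genes. Mycn had the highest (0.23), but this gene was detected in 1 cell only. The sugar-sensing branch, Mlx, Mlxip and Mlxipl, was detected in 22, 14 and 14 cells. Against the nucleolar mean the network ran from Mnt at -0.03 to Mlxip at 0.24, with none at 0.3, against 16.1% of all genes in use.

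Among 3139 genes outside the lists, averaging 10 FPKM or higher and detected in at least 50% of cells, those most like Myc were Dcxr (0.60), Nme4 (0.59), Nadk2 (0.59), Nit2 (0.54) and Mrpl2 (0.53). Dcxr encodes a carbonyl and xylulose reductase, Nme4 a mitochondrial nucleoside diphosphate kinase, Nadk2 the mitochondrial NAD kinase, Nit2 an amidase and Mrpl2 a protein of the mitochondrial ribosome. Without cells 79 and 96 their correlations were between 0.51 and 0.60. The least like Myc were Arf6 (-0.50) and Arpc1b (-0.48), of vesicle traffic and the actin network, and the heat shock gene Hsp90aa1 (-0.43). These are the extremes of many correlations over 39 cells.

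Those most like the nucleolar mean were 2 rows named for the hnRNP A1 pseudogene Gm5643 (0.73 and 0.72), followed by Rab9 (0.71), Cmah (0.70) and Cdc23 (0.70). The Gm5643 rows are uncertain. The one on chromosome 15 lies inside the row of Hnrnpa1, a splicing factor gene, and lists the same transcripts, and its estimated counts were more than 1e-06 away from a whole number in 38 of 39 cells. Hnrnpa1 itself, looked up after these values were seen, had a correlation of 0.52. The least like the nucleolar mean were Cox6b1 (-0.49), a subunit of cytochrome c oxidase, the nuclear non-coding RNA Malat1 (-0.47) and Tmsb10 (-0.44), which encodes an actin-binding thymosin.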

How the data were processed

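RNA of 39 single cells was amplified with the SMARTer kit and sequenced as Nextera XT libraries without molecular identifiers, so estimated counts are not numbers of molecules. The submitters' processing notes name bcl2fastq 1.8.4, TopHat2 2.0.14 and mm10/GRCm38, and the counting tool is not given in the sources used here. The authors deposited FPKM values, which divide by transcript length and a total per cell. The share of that total on genes was 33.4% to 95.2%, which scales all FPKM values of a cell. They also deposited estimated counts, not normalized, from which depth was taken and, after rounding, 350000 reads were drawn per cell for a thinned alternative.

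The unit FPKM allows no count model, and cells of 1 sample are not replicates, so no test was run. Expression was log2(FPKM + 1), genes in use had a mean of at least 1 FPKM, shares have exact (Clopper-Pearson) intervals, and correlations over the 39 cells are descriptions. To hold the number of detected genes fixed, ranks were regressed on the rank of that number. Named were the 10 members, the highest and lowest gene of each list, every Myc partner, and the 5 most and 3 least like Myc or the nucleolar mean. The members and lists were chosen with earlier results of these data known. Doublets were not called, since capture sites were inspected under a microscope. The scan over genes was tested on simulated data. The tools were scipy 1.17.1, numpy 2.4.6, matplotlib 3.10.9 and pandas 2.3.3, under Python 3.11.15.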

Additional observations from a re-analysis of the deposited data

How the results depend on the processing

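A correlation was read as moved where it changed by more than 0.1, since no replicates give a spread. Myc with the nucleolar mean was 0.14 by Pearson's correlation and 0.078 with a pseudocount of 0.1 FPKM as well, against -0.11 by ranks. The median of the 9 correlations with Myc was 0.035 by Pearson's correlation. The median of the 36 nucleolar pairs was 0.41 by Pearson's correlation and 0.45 with the smaller pseudocount, against 0.21 by ranks, and 0.11 without cells 79 and 96. Myc with Npm1, at -0.33 by ranks, turned to 0.12 and 0.070 under the 2 Pearson settings over all cells, and was -0.16 by Pearson's correlation without cells 79 and 96. With each cell left out in turn, the 3 values ranged from -0.16 to -0.05, from -0.10 to -0.01 and from 0.16 to 0.24. Holding detected genes fixed, rescaling, thinning and leaving out the cells under 2500 genes or the 2 cells farthest from the median of Myc moved none of these 3 values by more than 0.1, but the median of the 36 pairs was 0.11 without the cells under 2500 genes, 0.13 after thinning and 0.13 with detected genes held fixed. No cell had immune and stromal markers summing to 10 FPKM, so that alternative kept all 39 cells. No paired analysis was possible because all cells are in 1 group. A gene with few reads, such as Gar1 with a median of 9 estimated counts, limits any correlation it enters.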
